A study of Mus musculus with 12 samples.

Results

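Copper transporters, chaperones and cuproenzymes are described here across livers of Atp7b-/- mice given an agonist of the nuclear receptor LXR (liver X receptor), untreated Atp7b-/- mice and Het controls. The set was chosen by gene symbol and holds 10 of the 24532 genes in the deposited table: Atp7b, Atp7a, Slc31a1, Slc31a2, Atox1, Ccs, Sod1, Cp, Commd1 and Steap4. All 10 members passed the filter on low counts. The 3 groups are KO_drug (Atp7b-/-, LXR agonist), KO (Atp7b-/-, no agonist) and Het (the heterozygous control genotype, no agonist), with 4 libraries each. No wild-type group is among them, so levels given against Het are relative to heterozygous liver. All mice were of the mixed strain C57BL/6x129S6/SvEv and 20 wk old. The labels do not name the agonist, its dose or its duration, the allele, or the sex of the mice. No Het mice fed the agonist are among the groups, so its effect was measured on the Atp7b-/- background alone.

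Copper enters cells through SLC31A1 (CTR1) as the reduced ion, and STEAP4 is a membrane reductase of copper and iron. Inside the cell the chaperone ATOX1 passes copper to the ATPases ATP7A and ATP7B, and the chaperone CCS passes it to superoxide dismutase 1 (SOD1). In hepatocytes ATP7B loads copper onto ceruloplasmin (CP) and moves the excess to bile, and its loss is the cause of Wilson disease, in which the liver accumulates copper. COMMD1 takes part in the endosomal sorting of ATP7A and ATP7B, and SLC31A2 (CTR2) is a relative of CTR1 found mostly on intracellular membranes.

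Library totals ranged from 16535938 to 28329751 counts. Log2 levels correlated at 0.952 to 0.979 within groups and at 0.873 to 0.960 between groups. The 12 hepatocyte markers, among them Alb and Ttr, were all detected and summed to 66000 to 85200 CPM (counts per 1e6 counts) in KO_drug, 37600 to 68400 CPM in KO and 72400 to 131000 CPM in Het. In bulk tissue, fewer cells of a type and less RNA per cell cannot be told apart. In KO 5 the female transcript Xist was at 81.7 CPM and the Y-linked gene Ddx3y at 0.379 CPM. In KO 6 both were present, at 17.8 CPM for Xist and 64.4 CPM for Ddx3y, and the other 10 libraries held at most 0.425 CPM of Xist. When the KO group was reduced to KO 2 and KO 4, the same members were called in the same direction in both comparisons that use KO.

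Levels below are CPM on library sizes scaled by TMM, which assumes that most genes do not change. Fold changes come from edgeR's quasi-likelihood test, and a gene was called at a Benjamini-Hochberg adjusted p under 0.05 over 13379 genes tested. In KO against Het, 6 of the 10 members were called, 1 higher (Steap4) and 5 lower (Atp7b, Slc31a1, Ccs, Sod1 and Commd1), where 40.7% of all genes tested were called, 23.0% higher and 17.7% lower. In KO_drug against KO, 4 members were called, 2 higher (Ccs and Sod1) and 2 lower (Steap4 and Slc31a2), where 19.8% of all genes were called, 8.80% higher and 11.0% lower. In KO_drug against Het, 2 members were called, both lower (Atp7b and Slc31a1), where 21.4% of all genes were called, 13.0% higher and 8.45% lower. The median log2 fold change of the members was -0.16 in KO against Het, 0.05 in KO_drug against KO and -0.06 in KO_drug against Het. Over all genes tested the medians were 0.02, -0.02 and -5.22e-05 in the same order. KO_drug against KO and KO against Het share the KO libraries, so their opposite signs are not independent of each other.

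**Figure D1:**
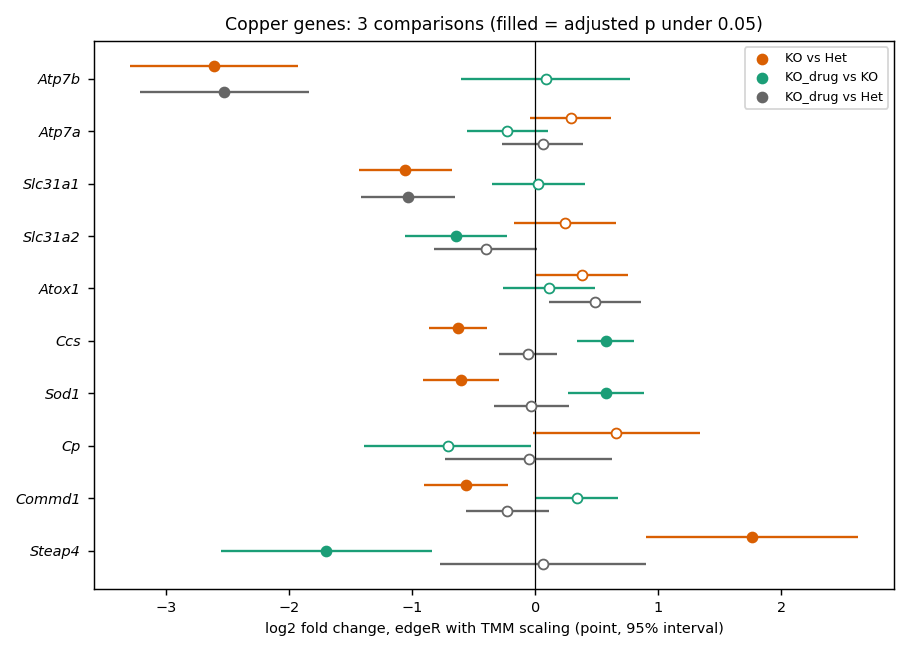
Log2 fold change of the 10 copper genes in 3 comparisons (edgeR, TMM scaling), with the point estimate and its 95% interval. Filled points have an adjusted p under 0.05. Atp7b and Slc31a1 lie left of 0 in both comparisons with Het and near 0 between KO_drug and KO.

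Atp7b is the targeted gene and checks the genotype labels. Its level was 1.31, 3.49, 1.27 and 2.81 CPM in KO_drug 1 to 4, and 1.76, 1.68, 2.71 and 2.20 CPM in KO 2, 4, 5 and 6. It was 9.90, 13.1, 12.2 and 16.2 CPM in Het 1 to 4. The 8 Atp7b-/- libraries all lay below the 4 Het libraries (of all genes, 17.1% did so in KO and 11.0% in KO_drug), and every one of them held Atp7b reads, from 23 to 93 counts. The fold change was -2.61 on the log2 scale in KO against Het (SE 0.32, edgeR adjusted p = 5.29e-05), so that KO held 16.3% of the Het level, and -2.53 in KO_drug against Het (SE 0.32, edgeR adjusted p = 9.7e-05). Between KO_drug and KO the log2 fold change was 0.09 with a 95% interval of -0.60 to 0.77 (edgeR adjusted p = 0.878). The files hold gene totals, so which exons these reads cover is not known here. The genes whose profiles over the 12 libraries were most like that of Atp7b were Nat8f1, Aox3 and Sdr9c7, with root mean square differences of centred log2 CPM of 0.425, 0.450 and 0.458. Aox3, an aldehyde oxidase of liver, averaged 213 CPM in KO_drug, 242 CPM in KO and 1320 CPM in Het.

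Atp7a, the copper ATPase of most tissues other than adult liver, was not called in any comparison under TMM scaling, but was called higher in KO against Het by total count. Its level was 17.1 to 22.6 CPM in KO_drug, 18.3 to 26.3 CPM in KO and 14.6 to 22.7 CPM in Het, and the 3 ranges overlapped. In deposited FPKM, every KO library (lowest 2.07) lay above every Het library (highest 1.94). FPKM is close to total-count scaling, as its factor times the library total varied at most 1.032-fold over libraries. On the total-count scale the median gene was at 0.54 (log2) in KO against Het. FPKM is thus not separate evidence, and the share of all genes so separated in FPKM was not computed. The log2 fold change was 0.29 in KO against Het (95% interval -0.04 to 0.62, edgeR adjusted p = 0.152) and -0.23 in KO_drug against KO (95% interval -0.56 to 0.10, edgeR adjusted p = 0.316). Per length, on the deposited FPKM scale, the ratio of Atp7a to Atp7b within a library was 6.28 ± 3.46 in KO_drug, 6.58 ± 2.06 in KO and 0.840 ± 0.147 in Het (SD, n = 4 each). Transcripts of the pair were at about equal FPKM in Het, and Atp7a was the more abundant in each of the 8 Atp7b-/- libraries. An exact two-sided permutation test gave p = 0.0286 for the ratio in KO against Het and in KO_drug against Het, the smallest that 4 against 4 libraries allow, and adjusted p = 0.0571 over the 12 ratio tests. Atp7b is the targeted gene, so a ratio over it separates the genotypes by design. The test restates the loss of Atp7b and is no separate result on Atp7a.

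Slc31a1, the high-affinity copper importer, fell in both Atp7b-/- groups. Its level was 64.3, 106, 68.8 and 56.6 CPM in KO_drug 1 to 4, and 67.7, 65.7, 79.8 and 78.3 CPM in KO 2, 4, 5 and 6. In Het 1 to 4 it was 130.1, 164, 158 and 154 CPM. No KO_drug or KO library reached the lowest Het library, and KO_drug 2 came nearest. Of all genes, 17.1% lay below Het without overlap in KO and 11.0% in KO_drug. The KO level was 48.1% of the Het level (log2 fold change -1.06, SE 0.18, edgeR adjusted p = 0.00054), and the KO_drug level was 48.8% of it (log2 fold change -1.03, SE 0.18, edgeR adjusted p = 0.00107). Between KO_drug and KO the log2 fold change was 0.02 with a 95% interval of -0.36 to 0.40 (edgeR adjusted p = 0.943). The difference from Het was called under every scaling, tool and left-out library tried, with log2 values of -1.12 to -1.01 in KO against Het when 1 library was left out. It was smaller, at -0.53 (edgeR adjusted p = 0.0149), when libraries were scaled by total count. Of the 12 hepatocyte markers, 2 fell and none rose in KO_drug against Het, and 8 fell and none rose in KO against Het, where 2 were lower and 2 higher by total count. Among all genes tested by TMM, 8.45% were lower in KO_drug against Het and 17.7% in KO against Het. The part of the hepatocyte markers in the Slc31a1 result was not tested. The nearest profiles were those of Hsd17b2, a steroid dehydrogenase, AI182371 and Mbl1, a mannose-binding lectin made by hepatocytes, with root mean square differences of 0.138, 0.157 and 0.166.

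Slc31a2 lies near Slc31a1 on chromosome 4, 62170 bases apart, with Fkbp15 annotated in the gap. Slc31a2 was not called in KO or KO_drug against Het under TMM scaling. By total count it was called higher in KO against Het, and in FPKM every KO library lay above every Het library. These are nearly the same scale, as given for Atp7a, and on it the median gene was also higher in KO. Its level was 8.47, 9.69, 5.68 and 7.16 CPM in KO_drug 1 to 4, and 15.1, 13.3, 10.8 and 9.25 CPM in KO 2, 4, 5 and 6. In Het 1 to 4 it was 10.4, 11.2, 8.67 and 10.8 CPM. KO_drug overlapped KO only through KO_drug 2 and KO 6. Slc31a2 fell in KO_drug against KO by 0.64 on the log2 scale (SE 0.19, edgeR adjusted p = 0.033). That call was lost when KO 2 (adjusted p = 0.0968), KO 4 (0.0824), KO_drug 3 (0.0964) or KO_drug 4 (0.0824) was left out. The log2 fold change in KO against Het was 0.24 (95% interval -0.17 to 0.65, edgeR adjusted p = 0.335), and in KO_drug against Het it was -0.40 (95% interval -0.82 to 0.02, edgeR adjusted p = 0.165).

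Within a library, the FPKM ratio of Slc31a1 to Slc31a2 was 4.75 ± 1.11 in KO_drug, 3.12 ± 0.944 in KO and 7.38 ± 1.22 in Het (SD, n = 4 each). The KO_drug and KO ratios all lay below the lowest Het ratio of 6.20, and KO_drug and KO overlapped. Exact two-sided permutation gave p = 0.0286 (adjusted p = 0.0571) for KO against Het and for KO_drug against Het, and p = 0.114 (adjusted p = 0.171) for KO_drug against KO. A ratio within a library does not depend on how libraries are scaled to each other. The span of Slc31a1 overlaps that of Fkbp15, which rose by 0.57 in KO against Het (log2, SE 0.12, edgeR adjusted p = 0.00209), opposite to Slc31a1. No source used here says whether the deposited counts used strand.

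The promoters of the 2 importers are shown because only 1 of these nearby genes was called against Het under TMM scaling. Each runs from 250 bases before to 50 bases after the start that the RefSeq table gives for the gene (GRCm38.p6), which for both lies inside the widest annotated span. The first is chr4:62360451-62360750 and the second chr4:62286179-62286478, both on the plus strand, and capitals mark motif matches.
Slc31a1: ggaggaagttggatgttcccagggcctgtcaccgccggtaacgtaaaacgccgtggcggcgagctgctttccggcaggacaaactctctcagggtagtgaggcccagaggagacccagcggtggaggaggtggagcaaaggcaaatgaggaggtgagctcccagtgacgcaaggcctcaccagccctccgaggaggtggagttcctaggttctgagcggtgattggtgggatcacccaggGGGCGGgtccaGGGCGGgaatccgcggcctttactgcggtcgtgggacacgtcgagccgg
Slc31a2: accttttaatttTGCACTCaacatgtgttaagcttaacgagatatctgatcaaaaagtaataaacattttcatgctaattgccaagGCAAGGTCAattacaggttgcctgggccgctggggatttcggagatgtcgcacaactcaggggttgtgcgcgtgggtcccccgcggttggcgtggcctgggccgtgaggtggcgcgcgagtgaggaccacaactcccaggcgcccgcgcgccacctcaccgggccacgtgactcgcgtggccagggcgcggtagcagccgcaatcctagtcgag
Matches were searched on both strands for the metal response element core (TGCACNC or TGCGCNC), the antioxidant response element core (TGACNNNGC), a STAT motif (TTCNNNGAA), the Sp1 GC box (GGGCGG) and an NF-kB motif. Of 32851 promoters of the same length, 25.7%, 12.4%, 8.3%, 35.7% and 8.46% held at least 1 match in that order. The Slc31a1 window held 2 GC boxes and no match to the other 4 motifs. The Slc31a2 window held 1 metal response element core at -238 and 1 antioxidant response element core at -164 relative to the gene start. A match describes letters and does not show binding.

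**Figure D2:**
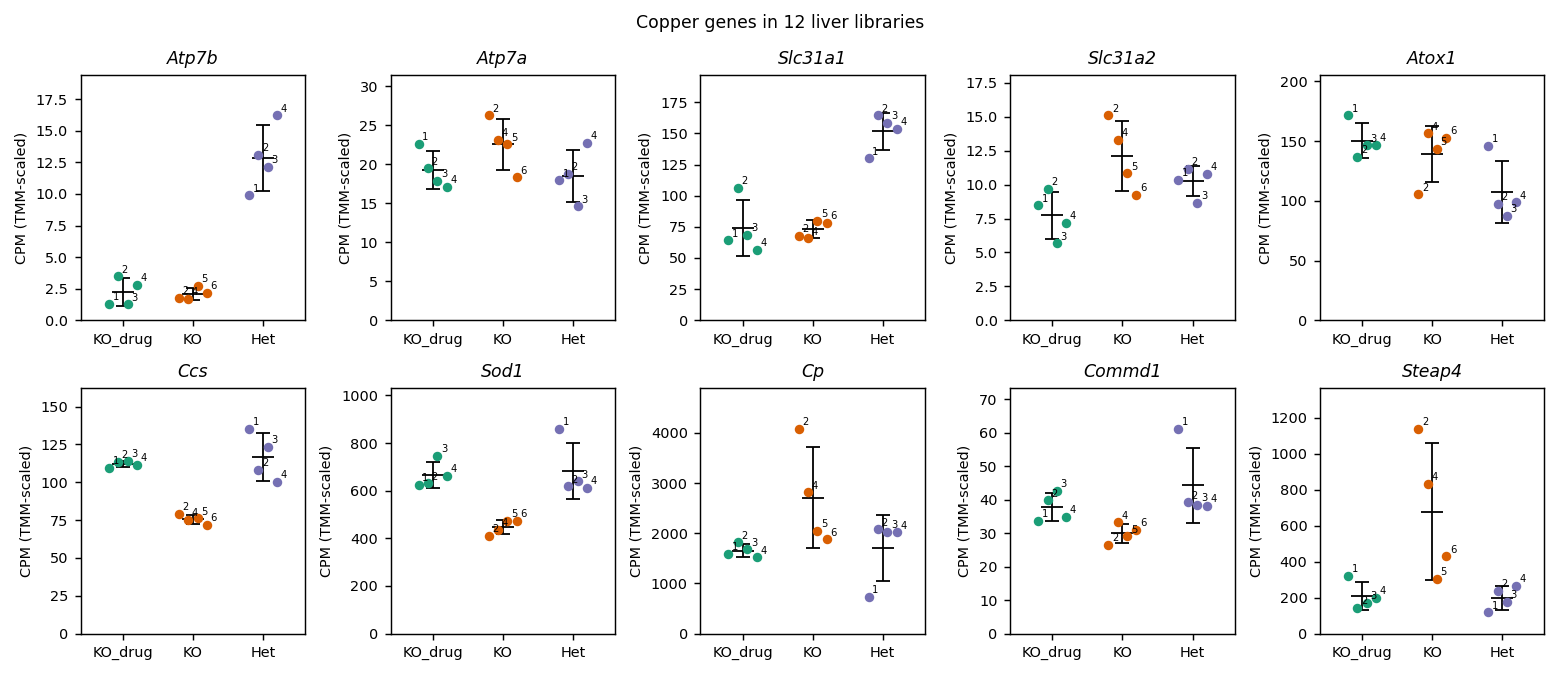
CPM (TMM-scaled) of each copper gene in 12 liver libraries, with KO_drug, KO and Het from left to right. Points are libraries with their replicate number, and bars are the mean and SD of 4 libraries. Slc31a1 lies at 56.6 to 106 CPM in KO_drug and 65.7 to 79.8 CPM in KO, below the Het range of 130.1 to 164 CPM.

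Among the chaperones, Ccs and its client Sod1 moved together, and Atox1 did not move with them. Ccs was at 109.6, 113, 114 and 112 CPM in KO_drug 1 to 4, at 78.9, 75.1, 76.0 and 71.8 CPM in KO 2, 4, 5 and 6, and at 135, 108, 123 and 100.2 CPM in Het 1 to 4. The 4 KO libraries were the lowest of all 12 and lay within a narrow range. Of all genes, 17.1% lay lower without overlap in KO against Het and 11.4% higher in KO_drug against KO. Ccs was higher by 0.57 on the log2 scale in KO_drug against KO (1.49-fold, SE 0.11, edgeR adjusted p = 0.00416) and lower by a log2 fold change of -0.63 in KO against Het (SE 0.11, edgeR adjusted p = 0.000673). In KO_drug against Het the log2 fold change was -0.06 with a 95% interval of -0.29 to 0.18 (edgeR adjusted p = 0.762).

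Sod1, the cytosolic copper and zinc superoxide dismutase and the member with the highest mean FPKM in KO_drug and Het, was at 625, 632, 746 and 664 CPM in KO_drug 1 to 4. In KO 2, 4, 5 and 6 it was at 409.9, 436, 474 and 473 CPM, and in Het 1 to 4 at 859.9, 618, 639.7 and 612 CPM. Again no KO library reached the range of KO_drug or Het, and Het 1 stood above the other 11. The shares of all genes that separated in this way were 17.1% against Het and 11.4% against KO_drug. The log2 fold change was 0.57 in KO_drug against KO (SE 0.14, edgeR adjusted p = 0.0146) and -0.61 in KO against Het (SE 0.14, edgeR adjusted p = 0.00457). Without KO_drug 3 the first of these gave adjusted p = 0.0501. In KO_drug against Het the log2 fold change was -0.03 with a 95% interval of -0.34 to 0.27 (edgeR adjusted p = 0.902).

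The FPKM ratio of Ccs to Sod1 within a library was 0.104 ± 0.00714 in KO_drug, 0.104 ± 0.0108 in KO and 0.106 ± 0.00952 in Het (SD, n = 4 each). The 3 ranges overlapped, and the lowest exact permutation p of the 3 comparisons was 0.714. Atox1 to Sod1 gave 0.336 ± 0.0492 in KO_drug, 0.459 ± 0.0627 in KO and 0.231 ± 0.0209 in Het (SD, n = 4 each). All KO_drug and KO ratios lay above the highest Het ratio of 0.251, with an exact two-sided permutation p = 0.0286 and adjusted p = 0.0571 in both comparisons. For KO_drug against KO the exact permutation p was 0.0571 (adjusted p = 0.0980), since KO_drug 1 exceeded KO 2.

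**Figure D3:**
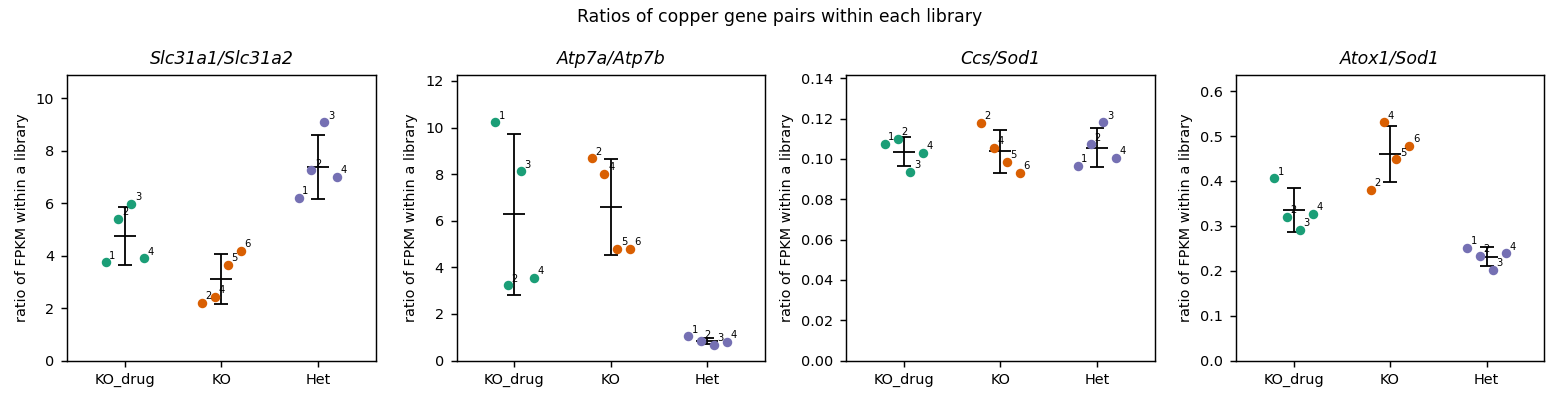
FPKM ratio of 4 gene pairs within each of 12 libraries, with KO_drug, KO and Het from left to right. Points are libraries with replicate numbers, and bars are the mean and SD of 4 libraries. The Ccs to Sod1 ratio lies between 0.0932 and 0.118 in all libraries, whereas the mean Slc31a1 to Slc31a2 ratio is 4.75 in KO_drug, 3.12 in KO and 7.38 in Het.

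Atox1, the chaperone that serves ATP7A and ATP7B, was at 171, 137, 147 and 147 CPM in KO_drug 1 to 4 and at 105, 156, 144 and 153 CPM in KO 2, 4, 5 and 6. In Het 1 to 4 it was at 146, 97.3, 87.4 and 98.9 CPM. Het 1 lay within the range of the Atp7b-/- libraries and the other 3 Het libraries below it. The log2 fold change was 0.38 in KO against Het (SE 0.17, edgeR adjusted p = 0.0989) and 0.49 in KO_drug against Het (SE 0.17, edgeR adjusted p = 0.0631). Without Het 1 these were 0.56 (adjusted p = 0.0105) and 0.67 (adjusted p = 0.00724), and without KO 2 the first was 0.49 (adjusted p = 0.0366). Het 1 also differed from the other Het libraries in Sod1, Cp and Commd1. Its summed CPM of 6 erythroid markers was 1959, against 202 to 356 in the other 3. The part of those cells in the Het 1 values was not tested.

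The promoter of Sod1, chr16:90220512-90220811 on the plus strand (RefSeq, GRCm38.p6), is shown as that of the member with the highest mean FPKM, with matches to the same motifs in capitals.
Sod1: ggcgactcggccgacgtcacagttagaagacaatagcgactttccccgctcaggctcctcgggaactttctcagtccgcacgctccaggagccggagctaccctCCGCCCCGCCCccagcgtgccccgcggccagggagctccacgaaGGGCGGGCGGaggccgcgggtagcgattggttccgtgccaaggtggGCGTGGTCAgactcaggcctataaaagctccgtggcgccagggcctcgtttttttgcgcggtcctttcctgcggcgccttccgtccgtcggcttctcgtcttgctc
It held 4 GC boxes, of which neighbouring ones overlap or adjoin, and 1 antioxidant response element core at -56.

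Commd1, the sorting factor, was at 33.7, 39.8, 42.7 and 34.9 CPM in KO_drug 1 to 4, at 26.6, 33.2, 29.1 and 31.0 CPM in KO 2, 4, 5 and 6, and at 61.1, 39.2, 38.4 and 38.1 CPM in Het 1 to 4. All KO libraries lay below all libraries of both other groups, where 17.1% of all genes lay lower without overlap in KO against Het. Commd1 fell in KO against Het (log2 fold change -0.56, SE 0.16, edgeR adjusted p = 0.0121). In KO_drug against KO it was at 0.34 (95% interval -0.0037 to 0.68, edgeR adjusted p = 0.151), where 11.4% of all genes lay higher without overlap. It overlaps Zrsr1, which rose by 0.55 in KO_drug against KO (log2, SE 0.14, edgeR adjusted p = 0.0184). Of 14 other COMMD, CCC and retriever genes, none was called in KO against Het and 1, Commd5, rose in KO_drug against KO (log2 fold change 0.36, SE 0.12, edgeR adjusted p = 0.0451), a call lost whenever any KO or KO_drug library was left out. Among all genes tested, 40.7% were called in KO against Het and 19.8% in KO_drug against KO. Under total-count scaling 5 of those 14 were called higher in KO against Het, and in KO_drug against KO 1 was called lower and none higher.

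The calls of Ccs, Sod1 and Commd1 depended on the scaling. With libraries scaled by total count, the median log2 fold change of all genes was 0.54 in KO against Het and -0.36 in KO_drug against KO. Transcripts of the major urinary proteins, which mouse liver secretes in bulk, took 2.07 to 4.53% of counts in KO_drug, 0.716 to 2.08% in KO and 10.7 to 14.4% in Het, and their part in that shift was not tested. On this scale KO against Het gave -0.12 for Ccs (edgeR adjusted p = 0.504), -0.11 for Sod1 (0.619) and -0.07 for Commd1 (0.789), and KO_drug against KO gave 0.23 for Ccs (0.234) and 0.23 for Sod1 (0.316). Atp7a (0.80), Slc31a2 (0.76), Atox1 (0.87) and Cp (1.22) were then called higher in KO against Het. Relative to the median of all genes, Ccs, Sod1 and Commd1 were lower in KO than in Het on both scales. Ccs and Sod1 were likewise higher in KO_drug than in KO. A change of scaling moves all genes by nearly the same amount, so this agreement was fixed in advance and is no support for the calls. The share of all calls that were higher was 93.7% by total count, against 56.5% by TMM, in KO against Het. In KO_drug against KO it was 8.41% by total count, against 44.3% by TMM, and in KO_drug against Het 83.0% against 60.6%.

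**Figure D4:**
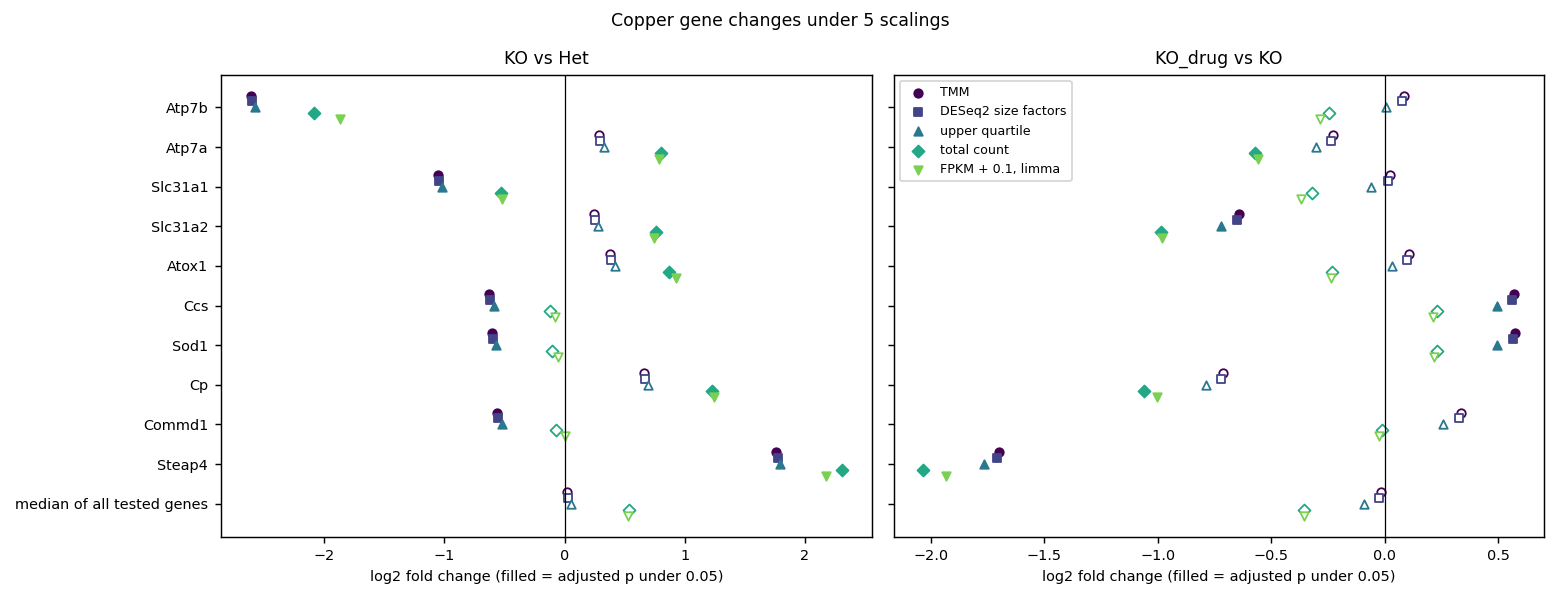
Log2 fold change of each copper gene and of the median tested gene under 5 scalings, with KO against Het on the left and KO_drug against KO on the right. Filled points have an adjusted p under 0.05. Under total-count scaling the median gene lies at 0.54 on the left and -0.36 on the right, and Ccs, Sod1 and Commd1 lie near 0 on the left. On log2(FPKM + 0.1), Atp7b is at -1.87 on the left, against -2.61 by TMM.

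Cp encodes ceruloplasmin, the copper ferroxidase of plasma and an acute phase protein. It was at 1587, 1818, 1683 and 1517 CPM in KO_drug 1 to 4, and at 4084, 2816, 2048 and 1879 CPM in KO 2, 4, 5 and 6. In Het 1 to 4 it was at 729, 2078, 2030.5 and 2023 CPM. KO 2 and KO 4 stood above all other libraries, Het 1 was the lowest of all, and every KO_drug library lay below every KO library, as did 12.5% of all genes. Cp was not called in any comparison under TMM scaling. The log2 fold change was -0.71 in KO_drug against KO (95% interval -1.39 to -0.03, edgeR adjusted p = 0.130) and 0.66 in KO against Het (95% interval -0.02 to 1.34, edgeR adjusted p = 0.113). By total count Cp was called lower in KO_drug against KO, at -1.06 (edgeR adjusted p = 0.0143). Its span overlaps that of Hps3, which rose in KO against Het (log2 fold change 0.99, SE 0.15, edgeR adjusted p = 0.000229). Of 19 other acute phase genes, 3 were called lower and none higher in KO_drug against KO, and 5 were called higher and 2 lower in KO against Het, where 11.0% of all genes were lower in KO_drug against KO, and 23.0% higher and 17.7% lower in KO against Het. By total count 10 of the 19 were lower in KO_drug against KO and 10 higher and none lower in KO against Het. Without Het 1, 4 were higher and 6 lower in KO against Het, without Het 4 it was 8 and none, and without Het 2, Het 3, KO 4 or KO 5 none was lower. Without KO 5, 6 were lower in KO_drug against KO. Their summed level was 19700 to 30600 CPM in KO_drug, 28100 to 46100 CPM in KO and 16700 to 42600 CPM in Het.

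Of the 10 members, Steap4 had the largest fall in KO_drug against KO and the largest rise in KO against Het. Its level was 321, 144, 172 and 198 CPM in KO_drug 1 to 4, and 1139, 832, 306 and 430.2 CPM in KO 2, 4, 5 and 6. In Het 1 to 4 it was 117, 239, 178 and 265 CPM. All KO libraries lay above all Het libraries, as did 22.2% of all genes, and KO_drug overlapped KO only through KO_drug 1 and KO 5. Steap4 fell in KO_drug against KO, where KO_drug held 30.8% of the KO level (log2 fold change -1.70, SE 0.40, edgeR adjusted p = 0.011), and was 3.39-fold higher in KO than in Het (log2 fold change 1.76, SE 0.40, edgeR adjusted p = 0.00371). In KO_drug against Het the log2 fold change was 0.06 with a 95% interval of -0.78 to 0.90 (edgeR adjusted p = 0.936). Leaving out 1 library gave -1.99 to -1.33 in KO_drug against KO and 1.39 to 2.01 in KO against Het, and both were called each time. When the KO group was reduced to KO 2 and KO 4 the values were -2.21 and 2.25.

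Macrophage markers moved with Steap4, and markers of other cell types did so in part. Among all genes tested, 23.0% were higher in KO against Het, 11.0% lower in KO_drug against KO and 21.4% called in KO_drug against Het. Of 12 macrophage markers, 12 rose in KO against Het, 10 fell in KO_drug against KO and none was called in KO_drug against Het. Their summed level was 391 to 918 CPM in KO_drug, 920 to 2120 CPM in KO and 402 to 531 CPM in Het. The genes with the profiles most like Steap4 were Treml4, Laptm5 and Adgre1, with root mean square differences of 0.238, 0.253 and 0.271 over the 12 libraries, and Adgre1, which encodes F4/80, is one of the 12 macrophage markers. Steap4 per summed macrophage CPM was 0.326 to 0.438 in KO_drug, 0.332 to 0.536 in KO and 0.264 to 0.498 in Het. The 3 ranges overlapped, but KO_drug and Het did so only through Het 1, at 0.264. Het 2 to 4 lay at 0.443 to 0.498, above every KO_drug library. Of 6 tested neutrophil markers, 2 fell in KO_drug against KO and 6 rose in KO against Het. In KO_drug against Het 2 of the 6, S100a8 and Mmp8, were higher, as were 13.0% of all genes. Their summed level over the list was 11.0 to 37.2 CPM in KO_drug, 18.7 to 98.7 CPM in KO and 3.07 to 12.3 CPM in Het. The count of 2 in KO_drug against KO was 5 by total count, 4 without KO_drug 1, and 0 without KO 2, KO 4, KO_drug 2, KO_drug 3 or KO_drug 4. Of 6 tested T and NK cell markers, 5 rose in KO against Het and 3 fell in KO_drug against KO. Their summed level was 3.18 to 6.42 CPM in KO_drug, 8.63 to 23.2 CPM in KO and 3.07 to 5.3 CPM in Het. Those 3 falls were 1 without KO 2 or KO_drug 3. Of 9 tested cholangiocyte markers, 4 rose and 1 fell in KO against Het. In KO_drug against KO 3 fell and 1 rose, and the 3 falls were 1 without KO 4 or KO_drug 2. The part of any of these cell types in the Steap4 result was not tested.

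**Figure D5:**
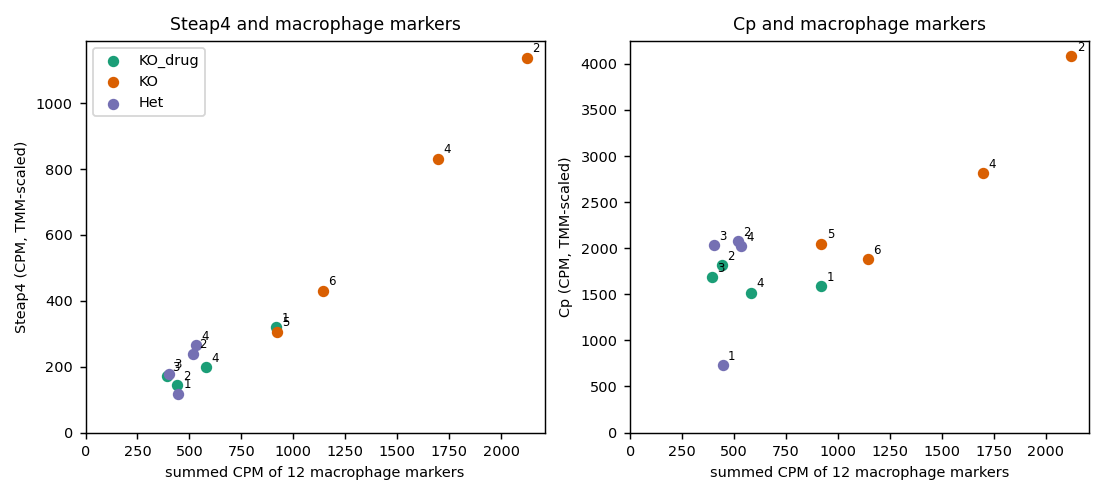
CPM of Steap4 (left) and Cp (right) against the summed CPM of 12 macrophage markers in 12 libraries, coloured by group and numbered by replicate. KO 2 and KO 4 are at the top right of both panels, with 1139 and 832 CPM of Steap4. Het 1 lies apart from the other Het libraries in Cp, at 729 CPM.

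The promoter of Steap4, chr5:7960222-7960521 on the plus strand (RefSeq, GRCm38.p6), is shown because this gene had the largest fall with the agonist, with matches to the same motifs in capitals.
Steap4: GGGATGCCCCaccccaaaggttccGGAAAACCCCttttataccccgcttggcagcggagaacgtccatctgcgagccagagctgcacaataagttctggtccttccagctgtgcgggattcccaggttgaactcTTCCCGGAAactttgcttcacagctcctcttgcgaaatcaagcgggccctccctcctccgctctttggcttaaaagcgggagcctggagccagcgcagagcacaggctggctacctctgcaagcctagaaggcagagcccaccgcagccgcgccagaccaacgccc
It held 1 STAT match at -116 and 2 NF-kB matches, motifs present in 8.3% and 8.46% of promoters, and no match to the other 3.

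Compared per length on the FPKM scale, the order of mean levels in KO_drug was Sod1 (792 FPKM), Cp (324), Atox1 (266), Ccs (81.9), Steap4 (51.8), Commd1 (35.5), Slc31a1 (15.2), Slc31a2 (3.26), Atp7a (1.82) and Atp7b (0.360). In KO, Steap4 at 214 FPKM stood above Ccs at 70.6 FPKM, and Sod1 and Cp both averaged 683 FPKM. In Het the order was that of KO_drug except that Atp7b (1.85) stood above Atp7a (1.55). The ranges of Cp and Atox1 overlapped in KO_drug and in Het, those of Steap4 and Commd1 overlapped in KO_drug and in Het, those of Atp7a and Atp7b overlapped in Het, those of Ccs and Steap4 and of Slc31a2 and Atp7a overlapped in KO_drug, and those of Sod1 and Cp and of Atox1 and Steap4 overlapped in KO. Slc31a1, at 12.1 to 21.8 FPKM in KO_drug, 17.6 to 21.4 FPKM in KO and 26.5 to 28.7 FPKM in Het, stood apart from its neighbours in the order in all 3 groups.

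Other genes of copper handling were counted from fixed lists. The metallothioneins Mt1 and Mt2, copper- and zinc-binding proteins, rose most. Mt1 averaged 2794 ± 501 CPM in KO_drug, 1987 ± 476 CPM in KO and 85.3 ± 106 CPM in Het, and Mt2 1283 ± 363 CPM in KO_drug, 917 ± 179 CPM in KO and 35.5 ± 55.3 CPM in Het (SD, n = 4 each). In KO against Het the log2 fold change was 4.54 for Mt1 (SE 0.74, edgeR adjusted p = 0.000464) and 4.69 for Mt2 (SE 0.99, edgeR adjusted p = 0.0023). Het 4 set the Het spread, and without it the values were 5.88 and 6.81. In KO_drug against KO they were 0.49 (adjusted p = 0.631) and 0.48 (adjusted p = 0.729), and the third gene tested of that list, the metal response factor Mtf1, was not called.

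Of 9 tested genes for other cuproenzymes, 5 rose in KO against Het and none fell, and 4 fell in KO_drug against KO and none rose. Among all genes tested, 23.0% were higher and 17.7% lower in KO against Het, and 8.80% higher and 11.0% lower in KO_drug against KO. By total count 6 of the 9 were lower in KO_drug against KO, and without KO 2, KO 4, KO_drug 3 or KO_drug 4 the count of 4 was 2. The genes called were the lysyl oxidase relatives Loxl2, Loxl3 and Loxl4, which cross-link collagen, the peptide-amidating enzyme Pam and, in KO against Het, the extracellular superoxide dismutase Sod3, which was at -0.50 in KO_drug against KO (log2, edgeR adjusted p = 0.0575). Loxl4 averaged 1.18 ± 0.185 CPM in KO_drug, 3.42 ± 1.17 CPM in KO and 0.946 ± 0.289 CPM in Het, with log2 fold changes of -1.52 in KO_drug against KO (SE 0.31, edgeR adjusted p = 0.00533) and 1.84 in KO against Het (SE 0.31, edgeR adjusted p = 0.000605). Pam averaged 38.2 ± 3.52 CPM in KO_drug, 72.0 ± 17.5 CPM in KO and 46.0 ± 2.09 CPM in Het. Of 11 stellate cell and matrix markers, 6 were higher in KO against Het: Col1a1, Col1a2, Col3a1, Lum, Dcn and Timp1. In KO_drug against KO 7 were lower, these 6 and Pdgfrb. Pdgfrb was not called in KO against Het, and Acta2, Des, Lrat and Rgs5 were called in neither comparison. The 11 markers summed to 351 to 452 CPM in KO_drug, 550 to 976 CPM in KO and 374 to 521 CPM in Het. The part of stellate cells or other matrix-producing cells was not tested.

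Of 9 genes of mitochondrial copper delivery, 4 fell in KO against Het (Sco2, Slc25a3, Cox11 and Cox19) and 2 of these, Sco2 and Slc25a3, rose in KO_drug against KO. Among all genes tested, 17.7% were lower in KO against Het, and 8.80% were higher and 11.0% lower in KO_drug against KO. Sco2, a copper chaperone of cytochrome c oxidase, averaged 20.7 ± 4.77 CPM in KO_drug, 10.1 ± 2.1 CPM in KO and 21.1 ± 5.99 CPM in Het, with log2 fold changes of 1.04 in KO_drug against KO (SE 0.22, edgeR adjusted p = 0.00646) and -1.07 in KO against Het (SE 0.22, edgeR adjusted p = 0.00198). By total count 1 of the 9 was higher in KO_drug against KO, and 2 were higher and 1 lower in KO against Het. The 2 calls in KO_drug against KO were 1 without KO 2, KO 4, KO 5, KO_drug 2, KO_drug 3 or KO_drug 4, and 1 with upper-quartile scaling or DESeq2 size factors. In KO against Het 1 gene was higher and 3 lower without Het 1 or without KO 2. Of the 12 hepatocyte markers, 2 (Ass1 and Cps1) were higher in KO_drug against KO and 8 lower in KO against Het. That count of 2 was 0 by total count and without KO 2, KO 4, KO 5, KO_drug 3 or KO_drug 4. Their part in these changes was not tested. Of the 3 tested genes of the STEAP family and metal import, Steap2 fell in KO against Het (log2 fold change -0.84, SE 0.21, edgeR adjusted p = 0.00732), though not by total count (-0.33, adjusted p = 0.256), and none was called in KO_drug against KO, where 2 were lower by total count. Of 8 other copper-binding proteins or ATP7B partners, 2 rose (Prnp and App) and 3 fell (Glrx, Xiap and Cutc) in KO against Het, against 5 higher and none lower by total count. The share of all genes by TMM was 23.0% higher and 17.7% lower in KO against Het, so the rise of 2 is near that share. Without Het 1, 1 of the 8 was lower there in place of 3. App, the amyloid precursor protein, fell in KO_drug against KO, with a log2 fold change of -0.94 (SE 0.19, edgeR adjusted p = 0.00608), and by total count 3 of the 8 were lower in that comparison.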

How the data were processed

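RNA from flash-frozen whole liver was made into libraries with a stranded total RNA kit, per the labels' protocols. FastQC 0.11.7, StringTie 2.1.3b and build mm10 are named in the submitters' processing notes. An aligner, an annotation release and a strand setting were not given in the sources used here, so overlapping genes may share reads.

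The authors deposited whole-number read counts per gene, not normalized, per the file headers. The authors also deposited FPKM per gene and library, which equal the counts times 1 factor per library and gene to within 5% in 98.6% of values over 6404 genes with at least 200 counts in each library. In the table, 3 unnamed columns were not used.

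The 12 libraries, of 16535938 to 28329751 counts, entered 1 edgeR 4.0.16 quasi-likelihood fit (R 4.3.3) with TMM scaling after filterByExpr (minimum count 10, minimum total 15), which kept 13379 of 24532 genes. Tests were two-sided with Benjamini-Hochberg adjustment over all genes tested and a threshold of 0.05. Ratios of deposited FPKM within a library were compared by exact permutation, adjusted over 12 tests. Alternatives were other scalings, DESeq2 1.42.0, limma 3.58.1 on log2(FPKM + 0.1) and log2(FPKM + 1), no filter, only the groups compared, KO 2 and KO 4 alone, a replicate block, and each library left out. The fit was tested on simulated data with few changed genes, balanced in direction. That setting does not test the scaling where many genes change.

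Promoters are from RefSeq (GRCm38.p6), where 9 of the 10 members matched. Positions come from a RefSeq table to which 24458 genes (99.7%) matched by gene number. The members and gene lists were chosen with earlier results of these data known. The genes named were the members, called genes of each list with the smallest adjusted p, and the 3 genes with the nearest profiles to Atp7b, Slc31a1 and Steap4, and not every gene this rule gives is printed. Nothing states that libraries of a group came from separate litters, so p-values measure the spread between these libraries.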

Additional observations from a re-analysis of the deposited data

Results flagged for a closer look

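In 3 of 42 groups of 4 libraries, 1 library stood apart from the other 3 by Dixon's test at the 95% level, where chance alone flags about 1 in 20, and in each case it was Het 1. Commd1 was at 61.1 CPM in Het 1, against 38.1 to 39.2 CPM in the other Het libraries. Cp was at 729 CPM, against 2023 to 2078 CPM. Sod1 was at 859.9 CPM, against 612 to 639.7 CPM. Without Het 1 the calls of these 3 genes in KO against Het and in KO_drug against Het were unchanged, with Commd1 and Sod1 lower in KO than in Het and Cp not called.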

How the results depend on the processing

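Of 240 values of members with 1 library left out, 216 kept their direction and their side of the threshold, 5 lost the call, 3 gained it and 16 changed sign. Of 290 values under the other alternatives these numbers were 225, 19, 22 and 24. All 108 ratios under alternatives lay within 1 SD of the value reported. Leaving out 1 library cannot move a group mean that far, and CPM in place of FPKM hardly changes a difference of log2 ratios. That count is therefore no measure of stability. In KO_drug against KO, 2654 genes were called, against 4256 by total count, 4781 and 4923 by limma on log2(FPKM + 0.1) and log2(FPKM + 1), 1741 with a replicate block and 1599 to 2884 with 1 library left out (1599 without KO_drug 3, 1642 without KO 4). The members called there were 2 with a replicate block and 2 to 4 with 1 library left out. The cause was not tested. In the same comparison the uncalled values changed sign by total count and by limma at both offsets for Atp7b (-0.25, -0.29 and -0.083), Slc31a1 (-0.32, -0.37 and -0.35), Atox1 (-0.23, -0.24 and -0.24) and Commd1 (-0.012, -0.024 and -0.023), and by upper quartile for Slc31a1 (-0.059). With 1 library left out they ranged from -0.22 to 0.28 for Atp7b, -0.21 to 0.13 for Slc31a1 and -0.0084 to 0.16 for Atox1. In KO_drug against Het, the same 3 alternatives gave 0.11, 0.13 and 0.13 for Ccs, 0.12, 0.16 and 0.16 for Sod1 and 0.16, 0.24 and 0.24 for Cp, none called, and a block gave 0.048 for Cp. With 1 library left out the ranges there were -0.044 to 0.16 for Atp7a, -0.13 to 0.020 for Ccs, -0.092 to 0.097 for Sod1, -0.31 to 0.043 for Cp and -0.23 to 0.22 for Steap4. In KO against Het, Commd1 was at 0.00025 by limma on log2(FPKM + 0.1) and not called.

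The labels state no pairing by replicate number. Deviations of same-numbered libraries correlated at 0.0726 and 0.0247 for KO and Het, 0.106 and 0.0883 for KO_drug and KO, and -0.0346 to 0.136 for KO_drug and Het. Differently numbered libraries were not compared, so these values do not decide whether the replicate number pairs the libraries. With the number as a block, 3693 genes and 4 members were called in KO against Het and 2516 genes and 3 members in KO_drug against Het. Log2 fold changes under the block were -0.59 for Sod1 and -0.45 for Commd1 in KO against Het, 0.47 for Ccs and 0.57 for Sod1 in KO_drug against KO, all uncalled, and 0.51 for Atox1 in KO_drug against Het, called.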
